A study of Homo sapiens with 15 samples.

Results

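Of the 770 genes on the NanoString PanCancer Pathways panel, 40 were classed as housekeeping genes in the table of raw counts, and these 40 are described here in all 15 samples, beside the 730 endogenous genes of the panel. HCT116, a human colorectal carcinoma cell line, was left untreated (control) or was treated with thymoquinone (TQ) at 40 µM, with 5-fluorouracil (5-FU) at 15 µM, with a combination of both (Combi, 35 µM of each) or with SARB, a hybrid of TQ and 5-FU, at 35 µM. TQ is a plant-derived quinone, and 5-FU is a pyrimidine analog that disturbs thymidylate synthesis and is incorporated into RNA. TQ and 5-FU were given alone at other doses than in Combi, so these treatments were not compared with each other. Cells were collected after 24 h, each group had 3 samples, and 50 ng of total RNA was hybridized per sample. The compounds were dissolved in DMSO, and whether the untreated cells received the vehicle is not given in the sources used here. The labels number the samples of a group without saying that they came from separate cultures, so p-values measure the spread between these samples, which may be technical.

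Housekeeping genes serve processes that every cell runs, such as splicing, translation, membrane traffic and respiration, and their transcripts are used as an internal reference because their levels are assumed to move little between conditions. In the NanoString assay a pair of probes captures each transcript and color barcodes are counted without amplification, so the number of counts depends on the RNA loaded and on the hybridization as well as on expression. The study scaled each sample to the geometric mean of the housekeeping genes, and any change shared by all of them is removed by that step. The same scaling was used here unless another is named: a scaled count is the raw count divided by the geometric mean of the 40 genes in its sample and multiplied by 284, the mean of these geometric means. A log2 fold change on this scale says how a housekeeping gene moved relative to the other housekeeping genes, not relative to the cell.

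The members fall into roles by what is known of them. Of the 40, 8 act in splicing or bind pre-mRNA or poly(A) RNA (DHX16, GPATCH3, PRPF38A, RBM45, SF3A3, SLC4A1AP, USP39 and ZC3H14), 3 in mRNA decay and deadenylation (CNOT4, CNOT10 and EDC3) and 4 in the nucleolus, in rRNA processing or in translation (DDX50, EIF2B4, FCF1 and NOL7). Another 4 are mitochondrial (ACAD9, AGK, FTSJ2 and MRPS5), 10 were grouped as transcription, chromatin and DNA repair genes (AMMECR1L, CC2D1B, ERCC3, HDAC3, PIAS1, SAP130, TLK2, ZKSCAN5, ZNF143 and ZNF346), and 5 serve membrane traffic or lipid phosphates (C10orf76, COG7, MTMR14, PIK3R4 and VPS33B). The remaining 6 were DNAJC14, NUBP1, TMUB2, TRIM39, TTC31 and ZNF384. The metabolic and cytoskeletal genes often used as references are absent from the class, and of 20 such genes looked for on the panel B2M alone was found, among the endogenous genes. All 40 members were matched to RefSeq (GRCh38.p14), where C10orf76 is now ARMH3 and FTSJ2 is MRM2. They lie on 13 chromosomes with 9 members on chromosome 2, and the closest neighbors are CC2D1B and PRPF38A, 38.4 kb apart on chromosome 1, and AMMECR1L and SAP130, 55.3 kb apart on chromosome 2.

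RefSeq promoter windows of 300 bases, reaching from 250 bases before to 50 bases after a start site, were matched for 38 of the 40 members. The start site was the outermost start of the gene in 33 of the 38, lay 195 and 197 bases inside it in MRPS5 and ZNF384, and was furthest inside in CNOT10 (10353 bases) and TLK2 (6897 bases). The promoters of 5 members are shown because the results turn on them. MRPS5 varied least over the 15 samples, and AMMECR1L and ZNF384 were called higher in 3 and in all 4 treatments. ACAD9 and NUBP1 were called lower in 3 treatments, as was AGK, whose promoter is not among the 5 shown. Each is written 5′ to 3′ in the direction of its gene, with matches of the searched motifs on either strand in capitals.
MRPS5, chr2:95121759-95122058 (minus strand): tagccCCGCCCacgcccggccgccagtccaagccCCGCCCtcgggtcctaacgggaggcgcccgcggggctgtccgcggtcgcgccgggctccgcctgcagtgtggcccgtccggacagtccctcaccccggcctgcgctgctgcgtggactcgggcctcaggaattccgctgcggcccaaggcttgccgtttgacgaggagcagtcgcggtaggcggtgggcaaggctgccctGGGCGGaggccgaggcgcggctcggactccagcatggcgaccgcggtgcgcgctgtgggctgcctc
AMMECR1L, chr2:127885907-127886206 (minus strand): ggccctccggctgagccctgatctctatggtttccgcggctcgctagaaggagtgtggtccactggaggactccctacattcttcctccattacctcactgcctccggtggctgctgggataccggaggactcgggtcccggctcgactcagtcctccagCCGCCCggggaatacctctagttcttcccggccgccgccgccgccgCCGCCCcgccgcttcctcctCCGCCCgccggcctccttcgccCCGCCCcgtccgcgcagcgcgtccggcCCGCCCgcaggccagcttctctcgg
ZNF384, chr12:6689326-6689625 (minus strand): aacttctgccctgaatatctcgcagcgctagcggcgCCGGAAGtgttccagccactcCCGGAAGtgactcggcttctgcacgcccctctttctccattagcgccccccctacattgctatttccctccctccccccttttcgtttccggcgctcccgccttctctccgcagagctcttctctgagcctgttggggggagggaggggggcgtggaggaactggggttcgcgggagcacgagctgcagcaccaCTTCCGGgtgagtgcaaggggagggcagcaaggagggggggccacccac
ACAD9, chr3:128879370-128879669 (plus strand): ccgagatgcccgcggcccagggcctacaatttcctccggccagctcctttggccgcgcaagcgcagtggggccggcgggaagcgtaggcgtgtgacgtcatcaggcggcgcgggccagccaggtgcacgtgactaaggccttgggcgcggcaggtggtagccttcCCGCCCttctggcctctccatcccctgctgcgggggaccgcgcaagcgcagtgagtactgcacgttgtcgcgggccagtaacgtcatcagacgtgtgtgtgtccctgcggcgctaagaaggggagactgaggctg
NUBP1, chr16:10743592-10743891 (plus strand): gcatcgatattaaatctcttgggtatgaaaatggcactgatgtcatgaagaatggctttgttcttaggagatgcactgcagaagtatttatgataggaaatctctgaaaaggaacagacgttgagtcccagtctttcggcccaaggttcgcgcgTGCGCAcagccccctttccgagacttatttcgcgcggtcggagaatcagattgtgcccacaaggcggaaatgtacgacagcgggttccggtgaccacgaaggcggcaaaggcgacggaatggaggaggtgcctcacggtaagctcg
The motifs searched on both strands were a TATA box, an ETS site, a GC box and parts of the NRF1, ZNF143 and YY1 motifs, each on its own, so that matches may overlap. MRPS5, AMMECR1L and ACAD9 held GC boxes, ZNF384 held ETS sites, and NUBP1 held the NRF1 core. Over the 38 promoters, the ETS site (letters CCGGAAG) was found in 14 (36.8%), against 8.94% of 548 promoters of endogenous genes and 10.3% of 35116 promoters in all. Part of the ZNF143 motif, searched as ACTACAA, was found in 5 (13.2%, against 1.82% and 2.77%). The core of the NRF1 motif, searched as TGCGCA, was found in 7 (18.4%, against 8.39% and 8.24%). The core of the YY1 motif, searched as GATGGCG, was found in 4 (10.5%, against 4.56% and 4.20%). The GC box, searched as GGGCGG, was found in 23 (60.5%, against 65.7% and 45.0%). The TATA box, searched as TATAAA, was found in 0 (against 8.94% and 11.5%). The median promoter of a member held 22.5 CpG dinucleotides, against 24 for endogenous genes and 14 for all promoters. These are descriptions of letters in a window and were not tested.

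The endogenous genes summed to 135017 to 607782 counts per sample and the housekeeping genes to 7242 to 34949, which was 4.03% to 5.79% of the counts of both. The 8 negative probes averaged 3.12 to 16.4 counts. The epithelial markers chosen to check the cell line were above background for 7 of 7 genes on the panel, against 1 of 6 fibroblast and mesenchymal markers (COL1A1) and 2 of 7 blood markers (CD40 and SYK). Going by the scanner file names in the labels, which do not name a batch as such, the samples ran on 3 cartridges. By these names cartridge 1 held every TQ, 5-FU and SARB sample beside control replicate 1. Cartridge 2 held control replicates 2 and 3 and Combi replicate 1, and cartridge 3 held Combi replicates 2 and 3. Replicates on different cartridges stood further apart in the 40 genes (median absolute log2 difference 0.24 to 0.25) than replicates on the same cartridge (0.06 to 0.18). SARB and Combi shared no cartridge, so no value within a cartridge can be given for their difference. All comparisons were also fitted with cartridge as a block, which links SARB and Combi only through the controls and Combi replicate 1.

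Set against the total of the endogenous genes, the reference level was higher in every treatment than in control. This is a ratio, which a change in either part can move. The geometric mean of the 40 genes was 164, 188 and 169 counts in control, 116, 461 and 167 in TQ, 233, 214 and 205 in 5-FU, 250.3, 540 and 475 in Combi and 295, 211 and 578 in SARB, in the order of the replicates. Per 1000 endogenous counts it was 0.747, 0.729 and 0.725 in control, 0.860, 0.899 and 0.911 in TQ, 0.890, 0.895 and 0.840 in 5-FU, 0.871, 0.888 and 0.901 in Combi and 0.920, 0.932 and 1.02 in SARB. All 12 treated samples lay above the 3 control samples, and the 3 SARB samples lay above the other 12. On the log2 scale the ratio exceeded control by 0.28 in TQ, by 0.25 in 5-FU, by 0.27 in Combi and by 0.38 in SARB, where the SD within a group was 0.02 to 0.08 (n = 3). SARB exceeded Combi by 0.11. Each of the 5 differences gave p = 0.1 in an exact two-sided permutation test, which is the smallest p that 3 samples against 3 allow, so none could pass 0.05, and adjusted over the 5 tests p stayed at 0.1. The 4 comparisons with control share the control samples. Among samples of cartridge 1 the difference from control replicate 1 was 0.25 in TQ, 0.23 in 5-FU and 0.35 in SARB, and within cartridge 2 it was 0.26 in Combi. Every function group of members lay above control in every treatment, from 0.09 for the mitochondrial genes in Combi to 0.50 for the transcription, chromatin and DNA repair genes in SARB, and leaving any group out of the geometric mean moved the differences from control to between 0.22 and 0.40.

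The differences in 5-FU, Combi and SARB depended on the denominator. The 5 most abundant endogenous genes were RPS27A, UBB, H3F3C, HIST1H3H and HIST1H3B, a ribosomal fusion gene, a ubiquitin gene and 3 histone H3 genes. They took 31.4% to 34.9% of the endogenous counts in control and 30.4% to 32.2% in TQ, but 18.4% to 21.8% in 5-FU, Combi and SARB. HIST1H3H alone held 6.64% of the endogenous counts in control, 6.88% in TQ and 0.70% to 0.77% in the other treatments. With these 5 genes left out of the total, an alternative chosen after seeing the data, the reference exceeded control by 0.24 in TQ, by 0.00 in 5-FU, by 0.01 in Combi and by 0.12 in SARB (exact permutation p = 0.1, 0.9, 1 and 0.1). The SARB samples then lay at 0.07 to 0.18, below the TQ samples at 0.21 to 0.26. Against the geometric mean of the endogenous genes in place of their total, the difference was 0.32 in TQ (exact permutation p = 0.1), 0.01 in 5-FU (p = 0.7), -0.11 in Combi (p = 0.3) and 0.15 in SARB (p = 0.4). TQ thus kept the higher reference level under all 3 denominators, with no overlap between its samples and control.

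**Figure D1:**
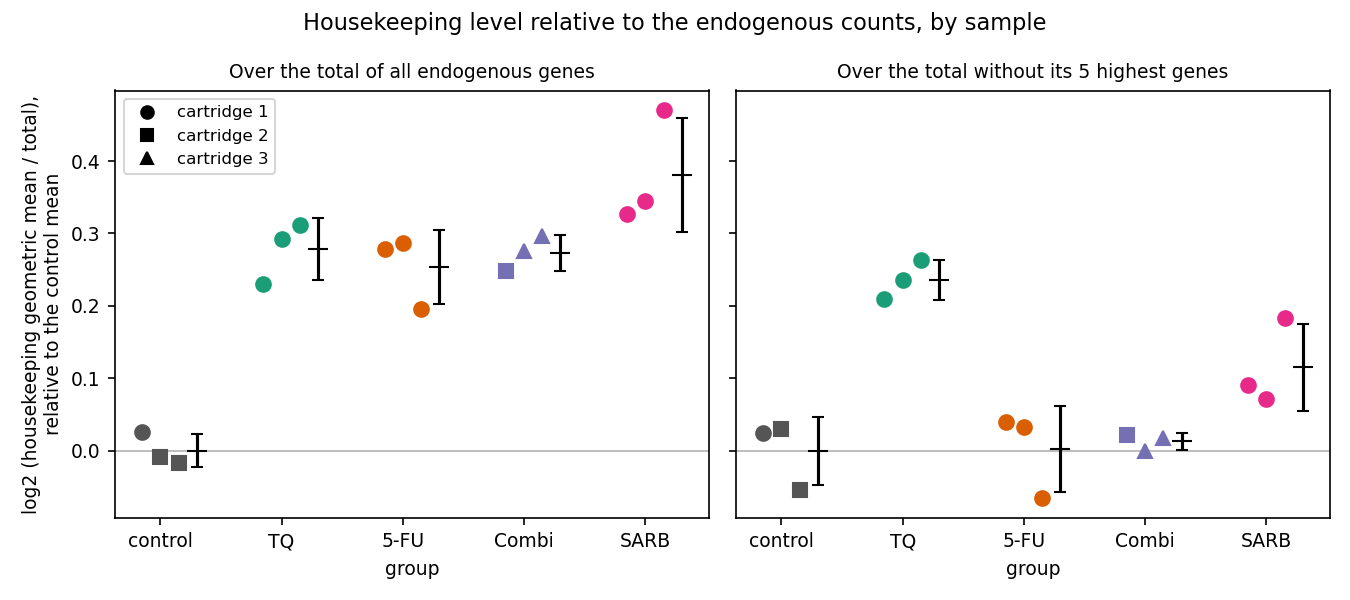
Log2 ratio of the geometric mean of the 40 housekeeping genes to the endogenous counts, relative to the control mean, for each sample by group. The left panel uses the total of all 730 endogenous genes and the right panel the total without its 5 highest genes, symbols mark the cartridge, and black bars are the mean and SD (n = 3). The 12 treated samples lie at 0.20 to 0.47 on the left, while on the right 5-FU and Combi lie between -0.07 and 0.04 and TQ stays at 0.21 to 0.26.

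Set against the 6 positive control probes, synthetic targets added in equal amount to every hybridization, the reference gave a ratio that varied far more. The ratio of the housekeeping to the positive geometric mean ranged from 0.122 in SARB replicate 2 to 1.35 in TQ replicate 2, or 11.0-fold over all samples. Both parts of the ratio varied. The positive geometric mean ranged from 342 in TQ replicate 2 to 1724 in SARB replicate 2, or 5.04-fold, and the housekeeping geometric mean ranged 4.97-fold. Within a group the highest over the lowest ratio was 1.32 in control, 1.97 in Combi, 2.45 in 5-FU, 5.11 in TQ and 5.92 in SARB. As 50 ng of total RNA was hybridized per sample, the ratio to the positive probes does not measure the number of cells or the RNA per cell. What set its range was not tested. In the deposited normalized values the factor of a sample followed the same 40 genes after background subtraction: the factor times the geometric mean of the 40 counts, each less the geometric mean of the negative probes, was 323 in all 15 samples. Without the subtraction that product ranged from 329 to 380. The subtraction lowered the log2 of the reference by 0.19 ± 0.05 in control (SD, n = 3), against 0.12 ± 0.05 in 5-FU, 0.10 ± 0.06 in Combi, 0.09 ± 0.02 in TQ and 0.08 ± 0.05 in SARB. Within control the change was -0.13 in replicate 1, on cartridge 1, and -0.23 and -0.22 in replicates 2 and 3, on cartridge 2. Whether it goes with treatment or cartridge was not tested.

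The members varied to different degrees around their own geometric mean. The SD over the 15 samples of the log2 ratio of a gene to the reference had a median of 0.253 over the 40 members and was under 0.25 in 18 of them. Among the 34 members with a mean of at least 100 counts the median was 0.244, against 0.337 for the 336 endogenous genes at that count, of which 83 (24.7%) lay at or under the median of the members. Members enter the reference that they are measured against, which lowers their SD. The SD exceeded 2 times the spread that counting alone gives in 33 of 40 members, and the range of the 5 group means exceeded 2 times the SD within groups in 34 of 40. The matching shares of endogenous genes are not given here. At a mean of at least 100 counts, the median range of group means was 0.50 in members and 0.79 in endogenous genes. The median SD within groups was 0.15 and 0.18.

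MRPS5, a protein of the small mitochondrial ribosomal subunit, had the smallest SD (0.115), followed by EIF2B4, the delta subunit of the translation factor eIF2B (0.122), and PRPF38A, a spliceosome protein (0.125). Scaled counts of MRPS5 were 965, 1209 and 1119 in control, 1048, 1106 and 1076 in TQ, 1055, 1087 and 1177 in 5-FU, 1255, 1127 and 1237 in Combi and 1065, 1119 and 1300.2 in SARB. The samples of each treatment overlapped control, and its log2 fold changes against control of -0.03 in TQ to 0.13 in Combi had 95% confidence intervals that together reached from -0.26 to 0.37. Scaled counts of EIF2B4 were 766, 878 and 741 in control, 862, 954 and 926 in TQ, 783, 812 and 820.0 in 5-FU, 838, 722 and 727 in Combi and 823, 747 and 792 in SARB. Those of PRPF38A were 872, 979.6 and 979.9 in control, 1031, 1096 and 1078 in TQ, 1017, 938 and 976 in 5-FU, 1129, 965 and 999 in Combi and 954, 957 and 799.7 in SARB. The TQ samples of PRPF38A lay above all control samples, by 0.18 on the log2 scale (SE 0.11, adjusted p = 0.2 in edgeR's quasi-likelihood test), and none of the 3 genes was called in any comparison after housekeeping scaling. Under TMM normalization, which assumes that most of the 770 genes do not change, EIF2B4 (0.63, adjusted p = 0.00625) and PRPF38A (0.61, adjusted p = 0.00335) were called higher in TQ and MRPS5 (0.45, adjusted p = 0.0347) in SARB. The mean SD of a gene's ratios to each of the other members, known as the geNorm M value, ranked the same 3 genes lowest, from 0.297 for EIF2B4 to 0.305 for MRPS5.

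CC2D1B, whose product binds ESCRT-III proteins, GPATCH3, a G-patch protein, and TMUB2, a transmembrane ubiquitin-like protein, varied most (SD 0.857, 0.631 and 0.407). CC2D1B and GPATCH3 were the only members under 20 counts in any sample. Raw counts of CC2D1B were 4, 10 and 11 in control, 4, 6 and 9 in TQ, 11, 16 and 6 in 5-FU, 8, 66 and 49 in Combi and 13, 17 and 44 in SARB, and it exceeded the background threshold, the mean of the negative probes plus 2 SD, in 4 of 15 samples. Raw counts of GPATCH3 were 14, 14 and 22 in control, 6, 42 and 17 in TQ, 15, 12 and 15 in 5-FU, 30, 114 and 98 in Combi and 17, 26 and 46 in SARB, above that threshold in 10 of 15. Both genes were highest in Combi replicates 2 and 3, the samples of cartridge 3. Scaled counts of TMUB2 were 292, 112 and 119 in control, 191, 206 and 191 in TQ, 219.8, 208 and 211 in 5-FU, 133, 179.7 and 179.7 in Combi and 267, 258 and 237 in SARB. In TMUB2 the single high control is control replicate 1, which shared cartridge 1 with TQ, 5-FU and SARB, and the controls of cartridge 2 lay below every other sample. CC2D1B and PRPF38A, neighbors on chromosome 1, thus stood at opposite ends of the spread.

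In TQ, 5 of the 40 members were called at an adjusted p of at most 0.05 (edgeR's quasi-likelihood test, Benjamini-Hochberg over 770 genes), 4 higher against 4.94% of all genes and 1 lower against 28.3%. None reached a 1.5-fold change as well, against 23.6% of all genes, and 10 members had an unadjusted p under 0.05. ERCC3, the XPB helicase of the transcription and repair factor TFIIH, rose most, by 0.58 on the log2 scale (SE 0.13, adjusted p = 0.00286). Its scaled counts were 349, 272 and 252 in control, 446, 461 and 399 in TQ, 379, 357 and 403 in 5-FU, 247, 225 and 204 in Combi and 363, 344 and 373 in SARB. The TQ and 5-FU samples lay above all controls and the Combi samples below them. ZNF384, a C2H2 zinc finger transcription factor, rose by 0.52 (SE 0.15, adjusted p = 0.0147), and its scaled counts were 396, 376 and 355 in control, 497, 618 and 486 in TQ, 568, 567 and 573 in 5-FU, 458, 642 and 559 in Combi and 634, 539 and 428 in SARB. All treated samples of ZNF384 lay above all controls. FCF1, which acts in the maturation of 18S rRNA, rose by 0.44 (adjusted p = 0.0184), with scaled counts of 1555, 1215 and 1155 in control, 1846, 1798 and 1688 in TQ, 1635, 1436 and 1505 in 5-FU, 1019, 1465 and 1427 in Combi and 1663, 1460.2 and 1614 in SARB. The TQ samples lay above all others. PIK3R4, the VPS15 subunit of the class III phosphoinositide 3-kinase, rose by 0.42 (adjusted p = 0.019). DDX50, a nucleolar RNA helicase, fell by 0.45 (SE 0.12, adjusted p = 0.00851). Scaled counts of DDX50 were 367, 422 and 412 in control, 304, 304 and 273 in TQ, 316, 317 and 371 in 5-FU, 402, 455 and 419 in Combi and 334, 330.3 and 336 in SARB, and the TQ samples lay below all controls. Over all 40 members the median log2 fold change was 0.02, against -0.47 for the endogenous genes.

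With any 1 sample left out, ERCC3 and DDX50 stayed called in TQ. ZNF384 was not called without control replicate 3 or TQ replicate 2, nor FCF1 without control replicate 2 or 3 or TQ replicate 1 or 2. The number of members called in TQ moved with single samples. It was 2 without TQ replicate 2, 3 without control replicate 3, 8 without Combi replicate 1, which enters the shared spread, and 10 without control replicate 1. With cartridge as a block, which sets TQ against control replicate 1 alone, 1 member was called (6.49% of all genes), TMUB2, lower with a log2 fold change of -0.57. For DDX50 the block gave -0.32 (adjusted p = 0.201) and for ERCC3 0.32 (adjusted p = 0.207).

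In 5-FU, 4 members were called higher (11.9% of all genes) and 4 lower (15.5%), and 2 of the 8 passed 1.5-fold (19.5%). ZNF384 rose by 0.60 on the log2 scale (SE 0.15, adjusted p = 0.00462), with 5-FU samples at 568, 567 and 573 scaled counts. AMMECR1L, a paralog of AMMECR1 whose function is little described, rose by 0.56 (SE 0.17, adjusted p = 0.0186). Scaled counts of AMMECR1L were 242, 197 and 239 in control, 235, 245 and 242 in TQ, 305, 278 and 417 in 5-FU, 294, 400.0 and 393 in Combi and 347, 333 and 469 in SARB. Its samples in 5-FU, Combi and SARB lay above all controls, and those in TQ did not. ERCC3 rose by 0.38 (adjusted p = 0.035), as did FTSJ2, a methyltransferase of mitochondrial rRNA, by 0.37 (adjusted p = 0.0199). NUBP1, a scaffold for iron-sulfur cluster assembly in the cytosol, fell most, by 0.60 (SE 0.21, adjusted p = 0.0369). Scaled counts of NUBP1 were 98.6, 166 and 123 in control, 142, 134 and 102 in TQ, 83.0, 93.1 and 80.6 in 5-FU, 103, 71.1 and 65.3 in Combi and 78.1, 76.9 and 79.7 in SARB. The 5-FU and SARB samples lay below all controls, although control replicate 1, the control of their own cartridge, was the lowest control. RBM45, an RNA-binding protein, fell by 0.51 (adjusted p = 0.0307), with scaled counts of 150.5, 162 and 143 in control, 144, 148 and 139.8 in TQ, 138, 95.8 and 83.4 in 5-FU, 126, 116 and 119 in Combi and 141, 109 and 126 in SARB. The 5-FU samples lay below all controls, replicate 1 by the least.

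ACAD9, an assembly factor of respiratory complex I, fell by 0.48 in 5-FU (SE 0.13, adjusted p = 0.00704). Scaled counts of ACAD9 were 289, 342 and 366 in control, 279, 286 and 279.7 in TQ, 234, 257 and 222 in 5-FU, 268, 228 and 246 in Combi and 242, 208 and 203 in SARB, so that every treated sample lay below every control. AGK, the mitochondrial acylglycerol kinase, fell by 0.34 (adjusted p = 0.0366). ZNF384 and ACAD9 stayed called in 5-FU with any 1 sample left out. NUBP1 was not called in 5 of 15 omissions (control replicate 2 or 3 and each 5-FU sample), with -0.37 without control replicate 2, and AMMECR1L not without control replicate 2 or 5-FU replicate 3 (0.37 without the latter). ERCC3 was not called without control replicate 2 or 3 or 5-FU replicate 1 or 3, nor RBM45 without control replicate 2 or 5-FU replicate 2 or 3. The count of 8 members was 2 without control replicate 2, 2 without 5-FU replicate 3, 4 without 5-FU replicate 2, 5 without control replicate 3 and 16 without control replicate 1. With cartridge as a block 3 members were called (15.3% of all genes), ZNF143 (log2 fold change 0.75), HDAC3 (-0.50) and TMUB2 (-0.46).

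In Combi, 5 members were called higher (15.8% of all genes) and 8 lower (13.1%), and 3 of the 13 passed 1.5-fold (19.5%). AMMECR1L rose by 0.69 on the log2 scale (SE 0.17, adjusted p = 0.00343) and ZNF384 by 0.56 (adjusted p = 0.00635). VPS33B, a protein of endosomal and lysosomal fusion, rose by 0.54 (adjusted p = 0.0342), with scaled counts of 128, 80.1 and 79.0 in control, 95.5, 117 and 80.2 in TQ, 137, 121 and 115 in 5-FU, 120.4, 142 and 150.3 in Combi and 122, 144 and 129 in SARB. Its control replicate 1 lay above Combi replicate 1, so these groups overlapped. DNAJC14, a co-chaperone of the endoplasmic reticulum, and COG7, a Golgi tethering subunit, rose by 0.44 and 0.42. CC2D1B and GPATCH3 had larger log2 fold changes (0.88 and 0.91) that were not called (adjusted p = 0.277 and 0.0698). NUBP1 fell by 0.73 (SE 0.20, adjusted p = 0.00864). PIAS1, a SUMO ligase that restrains STAT signaling, fell by 0.65 (adjusted p = 0.00364), with scaled counts of 301, 336 and 294 in control, 286, 228 and 220.0 in TQ, 276, 301 and 293 in 5-FU, 267, 168 and 169 in Combi and 279.6, 280.4 and 247 in SARB. NOL7, a nucleolar protein, fell by 0.57 (adjusted p = 0.0054), with scaled counts of 1610.2, 1955 and 1882 in control, 1863, 1870.1 and 1692 in TQ, 1517, 1321 and 1444 in 5-FU, 1623, 1011 and 1049.9 in Combi and 1481, 1215 and 1500.5 in SARB. In both genes Combi replicates 2 and 3 lay far below Combi replicate 1, which ran on cartridge 2 with controls 2 and 3, and for NOL7 that sample lay within the range of the controls.

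The other members called lower in Combi were C10orf76 (-0.56), AGK (-0.48), ACAD9 (-0.43), ERCC3 (-0.38, adjusted p = 0.0368) and ZC3H14 (-0.30). ERCC3 was called in opposite directions in Combi and in TQ and 5-FU. Among its controls, replicate 1 on cartridge 1 stood at 349 scaled counts and replicates 2 and 3 on cartridge 2 at 272 and 252, and with 1 control on cartridge 1 the cartridge and the replicate cannot be told apart. Combi replicate 1, also on cartridge 2, stood at 247. With cartridge as a block the difference in Combi was -0.09 (adjusted p = 0.9). AMMECR1L, PIAS1 and NOL7 stayed called in Combi with any 1 sample left out. ZNF384 was not called without Combi replicate 2, NUBP1 not without control replicate 2 or Combi replicate 3, and VPS33B not without control replicate 2 or 3 or Combi replicate 2 or 3. Without Combi replicate 2 the count of 13 members was 8, and without Combi replicate 3 it was 7. With the block, which leaves Combi replicate 1 alone against controls 2 and 3, 3 members were called (15.1% of all genes): ZNF143 (0.66), DNAJC14 (0.68) and AGK (-0.51).

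In SARB, 3 members were called higher (11.4% of all genes) and 6 lower (26.8%), and 4 of the 9 passed 1.5-fold (27.5%). AMMECR1L showed the largest rise of any member against control among those called, 0.78 on the log2 scale (SE 0.17, adjusted p = 0.00124). ZNF384 rose by 0.50 (adjusted p = 0.0129). TLK2, a kinase of chromatin assembly, rose by 0.40 (adjusted p = 0.0169), with scaled counts of 514, 497 and 518 in control, 479.8, 623 and 569.6 in TQ, 536, 568 and 625 in 5-FU, 612, 644 and 642 in Combi and 564, 681 and 766 in SARB. All SARB samples lay above all controls. NUBP1 fell by 0.73 (adjusted p = 0.00881), ACAD9 fell by 0.61 (adjusted p = 0.000738) and AGK fell by 0.55 (adjusted p = 0.00096). ZKSCAN5, a zinc finger protein, fell by 0.71 (SE 0.24, adjusted p = 0.024). Scaled counts of ZKSCAN5 were 79.6, 128 and 141 in control, 78.3, 67.8 and 81.9 in TQ, 83.0, 75.8 and 93.1 in 5-FU, 124, 75.4 and 61.1 in Combi and 71.3, 62.0 and 77.8 in SARB. Control replicate 1 lay within the range of TQ and 5-FU, its cartridge mates, and the higher controls were those of cartridge 2.

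PIK3R4 fell by 0.41 in SARB (adjusted p = 0.0185), the reverse of its rise in TQ, and SAP130, a subunit of the SIN3 histone deacetylase complex, fell by 0.32. AMMECR1L and SAP130, neighbors on chromosome 2, were thus called in opposite directions in SARB. AMMECR1L and ACAD9 stayed called in SARB with any 1 sample left out. NUBP1 was not called without control replicate 2, TLK2 not without control replicate 2 or SARB replicate 3, ZNF384 not without control replicate 3 or SARB replicate 1, and ZKSCAN5 not without control replicate 2 or 3 or SARB replicate 1. The count of 9 members was 4 without control replicate 2 and 16 without control replicate 1. With cartridge as a block 1 member was called (17.8% of all genes), AGK (-0.49), and AMMECR1L missed the threshold at 0.68 (adjusted p = 0.0546).

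Between SARB and Combi, given at the same dose of 35 µM and at the same time, 3 members were called higher in SARB (2.99% of all genes) and 5 lower (16%), and 2 of the 8 passed 1.5-fold (11.9%). ERCC3 was higher by 0.69 on the log2 scale (SE 0.13, adjusted p = 0.000847). Its control replicate 1, on the cartridge of SARB, stood at 349 scaled counts, within the SARB range of 344 to 373. With cartridge as a block the difference of ERCC3 was 0.14. HDAC3, the histone deacetylase of the NCoR complex, was higher by 0.49 (adjusted p = 0.0282), with scaled counts of 649, 441 and 454 in control, 509, 533 and 542 in TQ, 413, 451 and 511 in 5-FU, 326, 424 and 434 in Combi and 473, 572 and 617 in SARB. MTMR14, a phosphoinositide phosphatase, was higher by 0.36 (adjusted p = 0.0477), with scaled counts of 306, 229.8 and 250.4 in control, 355, 303 and 287 in TQ, 326, 326 and 316 in 5-FU, 229, 225 and 223 in Combi and 291, 313 and 268 in SARB. In both genes control replicate 1, on the cartridge of SARB, stood above the other controls. GPATCH3 was lower, with a log2 fold change of -1.09 (SE 0.35, adjusted p = 0.0361) at the low counts given above. TTC31, a tetratricopeptide repeat protein, was lower (-0.51, adjusted p = 0.0272), with scaled counts of 176, 259 and 257 in control, 193, 145 and 198 in TQ, 177, 179.6 and 183 in 5-FU, 277, 253 and 279.7 in Combi and 224, 181 and 166 in SARB. Its control replicate 1 on cartridge 1 lay within the range of SARB, and the controls of cartridge 2 lay within that of Combi. DNAJC14 was lower (-0.47, adjusted p = 0.0362), with scaled counts of 135, 92.2 and 123 in control, 154, 156 and 135 in TQ, 156, 165 and 125 in 5-FU, 172, 139 and 165 in Combi and 116, 111 and 115 in SARB. SARB and Combi did not overlap in any of the 8 genes but GPATCH3. The 8 were picked by the test on these same samples, so this adds no support. The share of all genes without overlap is not given here. CNOT4, a subunit of the CCR4-NOT deadenylation complex, and DDX50 were lower (-0.41 and -0.35). ERCC3 stayed called between SARB and Combi with any 1 sample left out, which cannot separate treatment from cartridge. MTMR14 was not called in 11 of 15 omissions, each Combi, SARB and 5-FU sample and TQ replicates 2 and 3. DNAJC14 was lost in 5 of 15 (Combi replicates 1 and 3 and each SARB sample), GPATCH3 in 4 (Combi replicates 2 and 3, SARB replicates 1 and 3), HDAC3 in 2 (Combi replicate 1, SARB replicate 3) and TTC31 in 2 (Combi replicate 3, SARB replicate 3). The count was 4 without Combi replicate 2, 2 without Combi replicate 3, 4 when SARB replicate 1 or 2 was left out and 1 when SARB replicate 3 was. The 5 members called against control in both SARB and Combi were not called between them. Their log2 difference was 0.08 for AMMECR1L (95% confidence interval -0.25 to 0.41), -0.06 for ZNF384 (-0.36 to 0.24), 0.00 for NUBP1 (-0.41 to 0.41), -0.18 for ACAD9 (-0.44 to 0.08) and -0.08 for AGK (-0.32 to 0.16). With cartridge as a block edgeR called 0 members (0.13% of all genes), with 1 at an unadjusted p under 0.05.

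**Figure D2:**
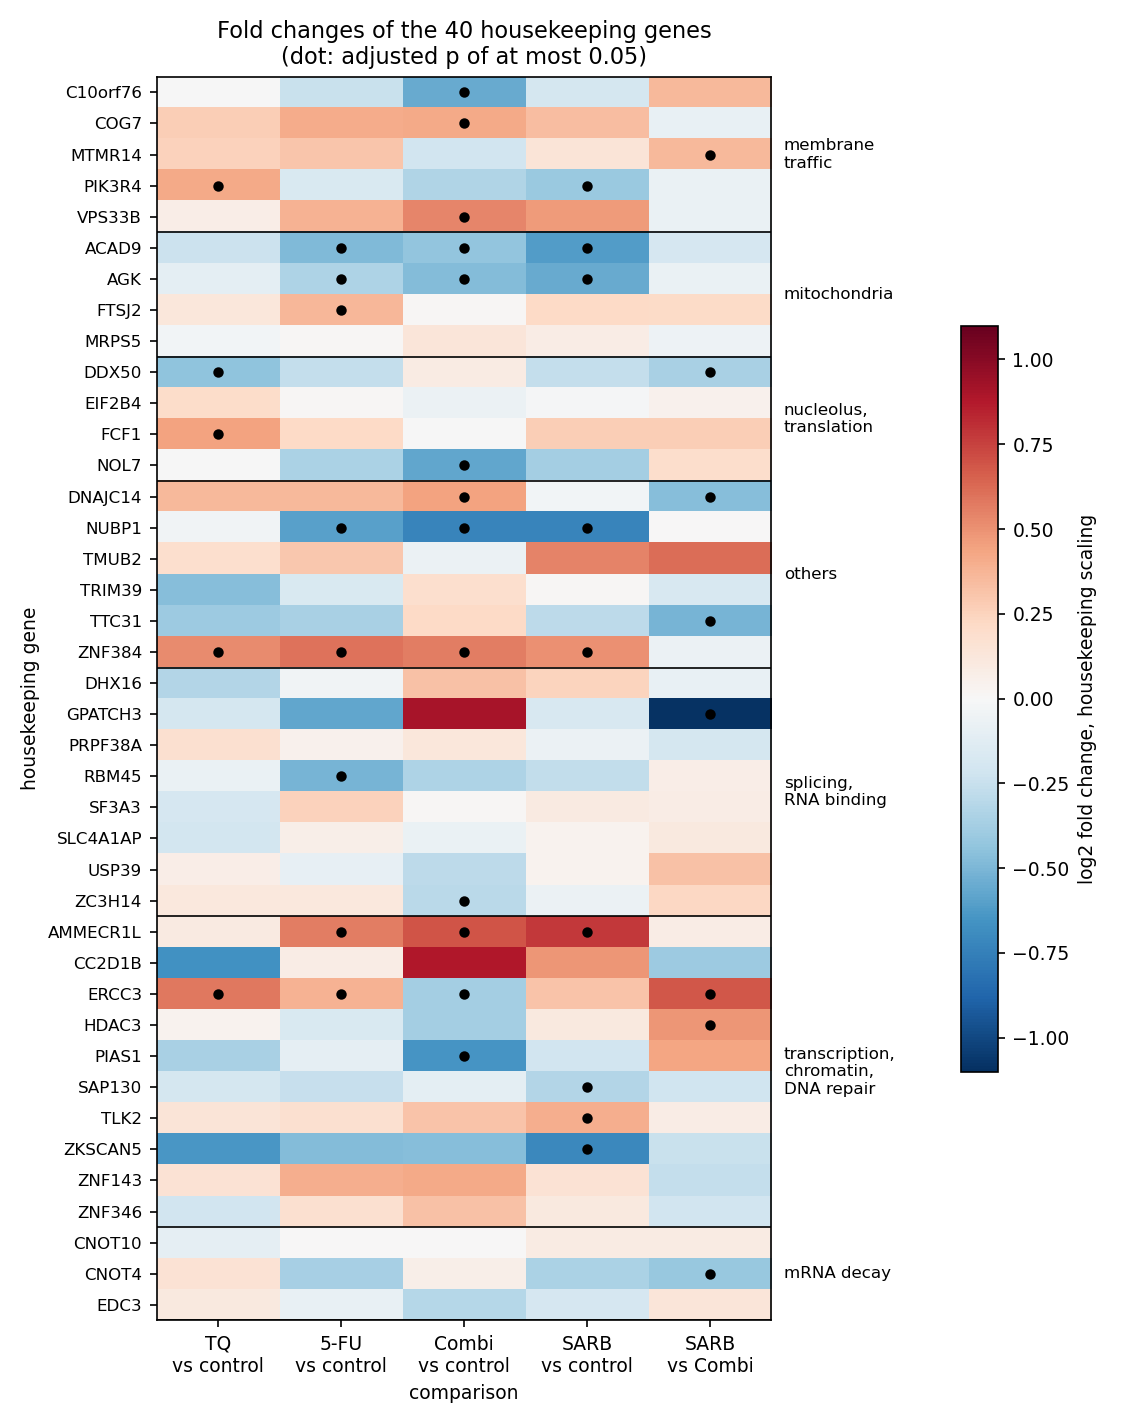
Log2 fold changes of the 40 housekeeping genes (rows, grouped by role) in the 5 comparisons (columns) after housekeeping scaling, with red for higher, blue for lower and a black dot where the adjusted p was at most 0.05. ZNF384 carries dots in all 4 treatments, AMMECR1L, NUBP1, ACAD9 and AGK in 3, and the darkest cell is GPATCH3 in SARB against Combi at -1.09.

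Seen by gene, 21 of the 40 members were called in at least 1 of the 4 comparisons with control and 7 in at least 2. The matching shares of all genes are not given here. In TQ, 5-FU, Combi and SARB alone, 5, 8, 13 and 9 members were called, against 256, 211, 223 and 294 of all 770 genes. ZNF384 was called higher in all 4 treatments, AMMECR1L higher in 5-FU, Combi and SARB, and NUBP1, ACAD9 and AGK lower in those 3. In TQ these 4 genes had log2 fold changes of 0.10, -0.04, -0.24 and -0.11 and were not called, and the difference of TQ from the other treatments was not tested. The 3 treatments that share these calls all contained 5-FU or the hybrid made with it, and they share the control samples. AGK, chosen after its values were seen because it was the member called with cartridge as a block in both Combi and SARB, had scaled counts of 429, 455 and 461 in control, 428, 423 and 397 in TQ, 339, 353 and 369.7 in 5-FU, 320.4, 330.4 and 315 in Combi and 345, 317 and 259 in SARB. Every treated sample lay below every control, by a wide margin in 5-FU, Combi and SARB and by less than 1 scaled count for TQ replicate 1. PIK3R4, singled out for its opposite calls, had scaled counts of 301, 331 and 291 in control, 409, 442 and 379 in TQ, 281, 269 and 274 in 5-FU, 272, 228 and 237 in Combi and 269, 199.5 and 226 in SARB.

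**Figure D3:**
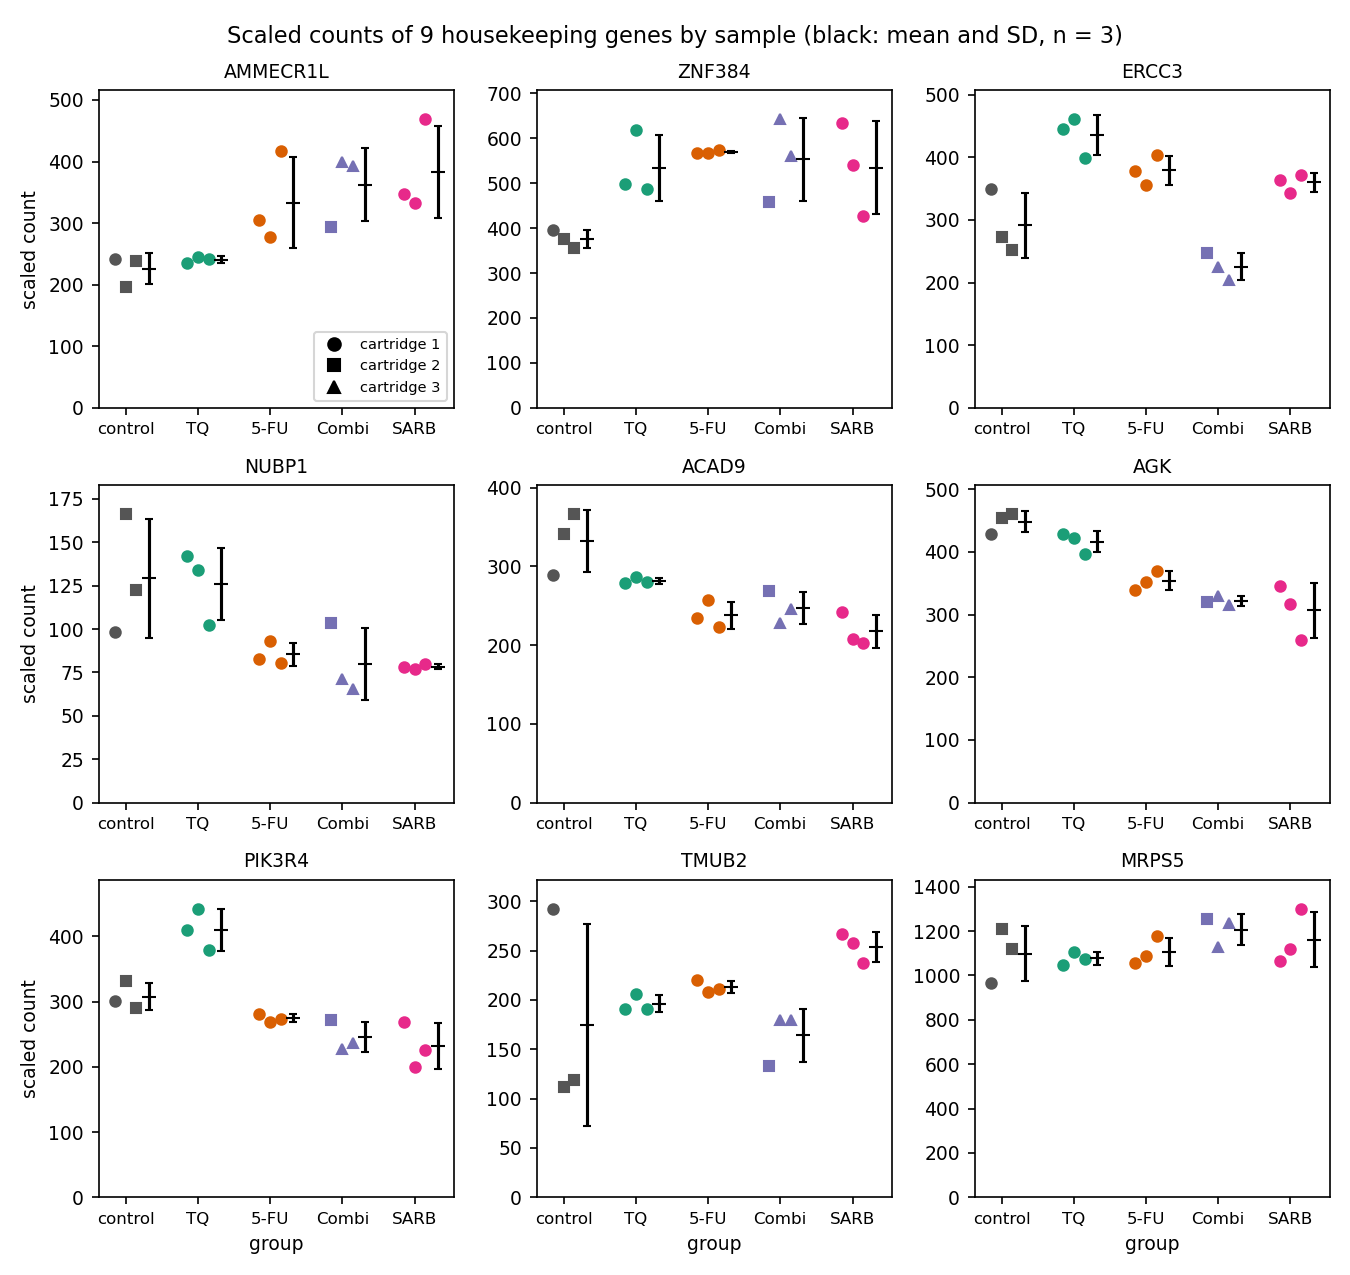
Scaled counts (vertical axes, from 0) of 9 housekeeping genes in each sample by group, with symbols for the cartridge and black bars for the mean and SD (n = 3). AMMECR1L and ZNF384 rise above all controls in 5-FU, Combi and SARB, ACAD9 and AGK fall below them, ERCC3 and TMUB2 differ between the control of cartridge 1 (349 and 292) and those of cartridge 2, and MRPS5 stays between 965 and 1300.2.

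Tested over the 5 groups at once, 23 of the 40 members differed (55.8% of all genes), and 14 did with cartridge as a block (36% of all genes). The lowest adjusted p values in that test were 2.63e-05 for ERCC3 and 7.21e-05 for PIK3R4, and with the block they were 0.177 and 0.000215. Without Combi replicate 3 the count of 23 was 15. Members called neither there nor against control numbered 11: CC2D1B, CNOT10, EIF2B4, HDAC3, MRPS5, PRPF38A, SLC4A1AP, TMUB2, USP39, ZNF143 and ZNF346. By role, 2 of 4 mitochondrial genes, ACAD9 and AGK, were called lower in 5-FU (15.5% of all genes), Combi (13.1%) and SARB (26.8%), and 1 of 4, FTSJ2, was called higher in 5-FU (11.9%). Of the 8 splicing and RNA-binding genes, 1 was called lower in 5-FU and 1 in Combi, against the same shares of all genes, and of the 3 mRNA decay genes 0 were called against control. Of the 10 genes grouped as transcription, chromatin and DNA repair genes, 2 were called higher in SARB (11.4% of all genes) and 2 lower (26.8%). That group does not hold ZNF384, which the list placed among the remaining 6.

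The balance of higher and lower calls depended on the scaling. Under TMM, the median log2 fold change of the 40 members was 0.44 in TQ, 0.21 in 5-FU, 0.06 in Combi, 0.38 in SARB and 0.28 for SARB against Combi, against -0.05, -0.06, -0.04, -0.07 and -0.04 for the endogenous genes. In TQ, 16 members were called higher (14.5% of all genes) and 0 lower (7.4%). In 5-FU, 9 were called higher (17.3%) and 0 lower (7.53%). In Combi, 4 were called higher (16.9%) and 5 lower (8.31%). In SARB, 14 were called higher (21.7%) and 0 lower (12.3%), and for SARB against Combi 10 higher (8.7%) and 0 lower (6.75%). DESeq2, which also centers on all genes, called 16 members higher in TQ (23.9% of the genes to which it gave an adjusted p were called in either direction), 8 higher in 5-FU (27.8%), 4 higher and 5 lower in Combi (30.9%) and 14 higher in SARB (34.6%). ZNF384 was called higher in all 4 treatments under TMM as well (0.63 to 0.95), and AMMECR1L in 5-FU, Combi and SARB (0.76 to 1.16). NUBP1 was called lower there in Combi alone (-0.66), ACAD9 in no treatment (-0.36 to 0.20) and AGK in Combi alone (-0.41). ERCC3 rose in TQ, 5-FU and SARB under TMM (1.01, 0.58 and 0.66) and was -0.32 in Combi, where it was not called.

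**Figure D4:**
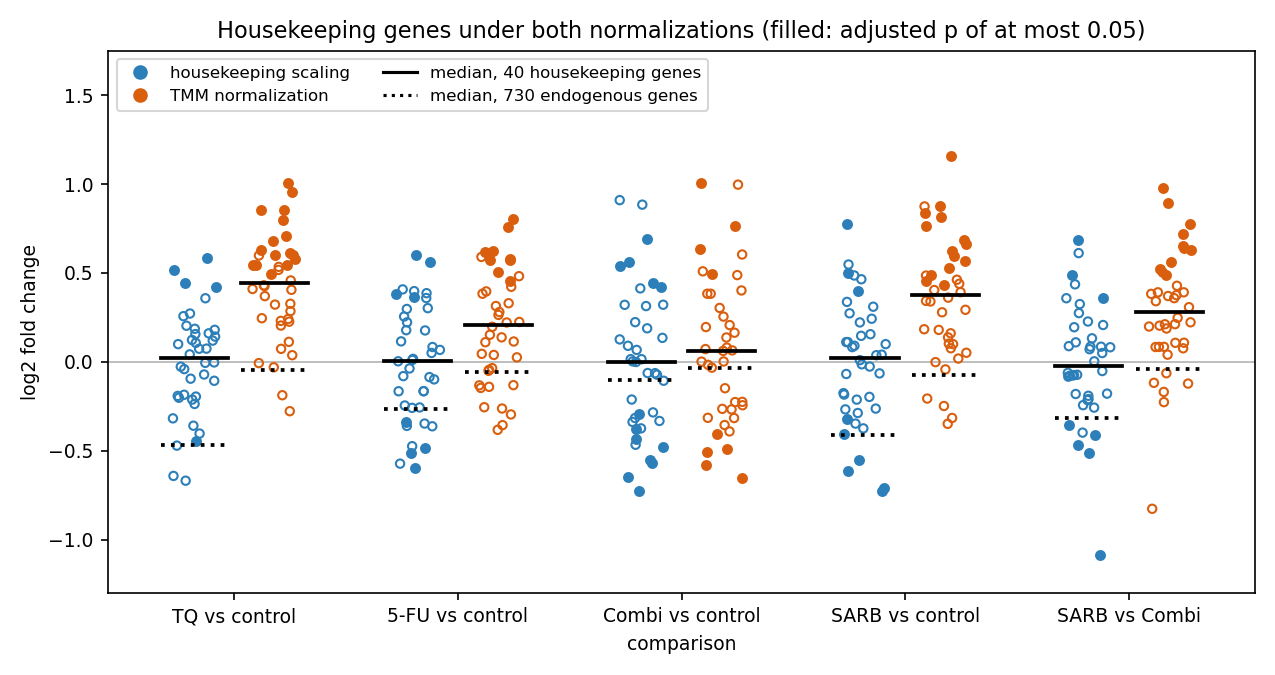
Log2 fold changes of the 40 housekeeping genes in the 5 comparisons after housekeeping scaling (blue) and TMM normalization (orange), with filled points where the adjusted p was at most 0.05, solid lines for the median of the housekeeping genes and dotted lines for that of the 730 endogenous genes. The solid lines lie near 0 after housekeeping scaling and at 0.44 in TQ and 0.38 in SARB after TMM, and the gap to the dotted lines is smallest in Combi.

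A list of endogenous genes with like roles was set beside the members. Of 28 endogenous genes for RNA polymerase II, splicing, translation, DNA repair and replication, and histone deacetylation, 1 was called higher and 14 lower in TQ, 4 and 10 in 5-FU, 6 and 9 in Combi and 3 and 13 in SARB, with median log2 fold changes of -0.36, -0.17, -0.24 and -0.27 against -0.47, -0.27, -0.10 and -0.41 over all endogenous genes. Under TMM the counts were 3 and 2, 7 and 6, 6 and 7, and 9 and 6. After housekeeping scaling, the higher calls made up 4.94%, 11.9%, 15.8% and 11.4% of all genes, in the same order of treatments. The lower calls made up 28.3%, 15.5%, 13.1% and 26.8%. Under TMM these shares were 14.5%, 17.3%, 16.9% and 21.7% for higher and 7.4%, 7.53%, 8.31% and 12.3% for lower calls. The difference of the 28 genes from these shares was not tested. DDB2, a DNA damage recognition factor, was called higher in 5-FU, Combi and SARB under both scalings (1.93 in 5-FU and 1.50 in SARB after housekeeping scaling), and HDAC2, a deacetylase of the same class as the member HDAC3, was called lower there (-0.65, -0.72 and -0.77), where HDAC3 was not called (-0.17, -0.37 and 0.11). B2M, the classic reference gene on the panel, had log2 fold changes of -0.80 in TQ (SE 0.15, adjusted p = 0.000516), 0.07 in 5-FU, 0.36 in Combi and 0.08 in SARB. Under TMM its log2 fold change was -0.37 (adjusted p = 0.0624) in TQ, 0.43 in Combi (adjusted p = 0.0238) and 0.40 in SARB (adjusted p = 0.0305), so that the call moved from TQ to Combi and SARB.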

How the data were processed

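RNA of 15 HCT116 samples was counted on the NanoString nCounter. The deposited raw counts list 770 genes, 6 positive and 8 negative probes per sample, and the software that wrote them is not given in the sources used here. The authors also deposited normalized values made with nSolver, a signal from which the background had been subtracted, scaled by the housekeeping genes and set to at least 1. A further file holds the authors' fold changes and p-values and was not used. Each cartridge was read from the scanner file named in the labels. Counts of all 770 genes were tested in R 4.3.3 with the quasi-likelihood test of edgeR 4.0.16 over the 5 groups in a single fit, with the geometric mean of the 40 housekeeping counts as library size and no filter, and p-values were adjusted by Benjamini-Hochberg over the 770 genes. Calls were made at an adjusted p of at most 0.05, with those past 1.5-fold counted separately. The procedure was tested on simulated data. The reference level was compared with exact two-sided permutation tests in scipy 1.17.1 (Python 3.11.15, pandas 2.3.3). Alternatives used TMM, the endogenous total, the positive probes, background subtraction, a mean count of at least 20, cartridge or replicate number as a block, each sample left out, DESeq2 1.42.0, and limma 3.58.1 on log2 of the deposited signal. Values in every sample are given for the 3 members with the smallest and the 3 with the largest SD, for up to 3 called higher and 3 called lower with the largest log2 fold change in each comparison, and for any member under 20 counts. The members and lists were chosen with earlier results of these data known. Replicate numbers were not treated as pairs: of 30 same-numbered pairs, 11 had deviations from the group means that correlated at over 0.1, with r from -0.67 to 0.39. Differently numbered pairs were not compared, so these values cannot decide whether the samples were paired. Endogenous totals were 135017 to 607782 counts per sample, and the lowest count of a member was 4.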

Additional observations from a re-analysis of the deposited data

How the results depend on the processing

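The number of members called changed with the scaling, with cartridge as a block and with single samples. Calls over the whole panel changed too. Of all 770 genes, scaling to the positive probes left 12 called for SARB, 10 for TQ and 5 for 5-FU. It left 47 for Combi, 35 for SARB against Combi and 67 over the 5 groups. For the endogenous total, background subtraction and limma, counts over all genes are not given here. For TQ the 5 members called became 16 with TMM, 14 with the endogenous total, 16 with DESeq2, 1 with cartridge as a block and 0 with scaling to the positive probes. For 5-FU the 8 became 14 with the endogenous total, 3 with the cartridge block and 0 with the positive probes. For Combi the 13 became 3 with the cartridge block and 2 with the positive probes. For SARB the 9 became 14 with TMM, 20 with the endogenous total, 14 with DESeq2, 1 with the cartridge block and 0 with the positive probes. For SARB against Combi the 8 became 4 after background subtraction, 2 with limma on the deposited values, 0 with the cartridge block and 0 with the positive probes, and the 23 members that differed over the 5 groups became 14 with the cartridge block and 2 with the positive probes. These counts of 0 are from edgeR, where 27 members in TQ, 0 in 5-FU, 2 in SARB and 1 for SARB against Combi had an unadjusted p under 0.05 with the positive probes, and 1 for SARB against Combi with the cartridge block.

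With each sample left out in turn, the members called numbered 7 to 17 in Combi, 4 to 16 in SARB, 2 to 16 in 5-FU, 2 to 10 in TQ, 1 to 10 for SARB against Combi and 15 to 27 over the 5 groups. Counts over all genes with a sample left out are not given here. With the replicate number as a block, a pairing that the correlations do not establish, all 28 calls of the named genes held in direction and threshold. The differences in the reference level stayed at 0.28, 0.25, 0.27, 0.38 and 0.11. That was fixed in advance, because every group holds each replicate number once. Of the 28 named calls, 17 held with TMM, 15 with the endogenous total, 23 after background subtraction, 22 with limma on the deposited values, and 0 with the positive probes. With the cartridge block 0 held, but 12 of the 28 log2 fold changes kept their sign and were over or within 1.5 times of their value without it, among them VPS33B in Combi (0.60) and DNAJC14 in SARB against Combi (-0.92). Reversed log2 fold changes were DDX50 in TQ (1.22 with the positive probes and 0.0191 with DESeq2), NUBP1 (0.27), PIAS1 (0.35) and NOL7 (0.40) in Combi and NUBP1 (0.0906), ZKSCAN5 (0.17) and ACAD9 (0.19) in SARB, all with the positive probes, and MTMR14 in SARB against Combi with the cartridge block (-0.0185). The reference level in Combi reversed to -0.11 against the endogenous geometric mean. The product of the deposited factor and the housekeeping geometric mean, equal in all samples after background subtraction, varied 1.15-fold without it, 5.04-fold with positive-control factors and 5.20-fold with those alone. The causes were not tested. Members under 20 counts in some samples, CC2D1B and GPATCH3, limit what depth can show for them.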
